A study of Mus musculus with 11 samples.

Results

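The genes described here are 9 members of the calcium and chloride machinery of the cells that wrap brain vessels, out of 32287 genes counted. They were taken by symbol from the gene list of the count tables: the plasma membrane calcium channels Cacna1c and Cacna1h, the calcium-activated chloride channel Ano1, the channels that release calcium from internal stores, Itpr1, Itpr2, Ryr2 and Ryr3, and the pumps Atp2a2 and Atp2b4. Each symbol had 1 entry in the tables. In smooth muscle cells (SMC) of arterioles and in pericytes (PC) of capillaries, depolarisation opens voltage-gated calcium channels, and inositol trisphosphate (IP3) receptors and ryanodine receptors release further calcium from the sarcoplasmic or endoplasmic reticulum. Calcium opens the chloride channel ANO1, chloride leaves the cell and the membrane depolarises further. SERCA pumps refill the store and plasma membrane pumps remove calcium from the cell, and the alternation of release and removal gives the calcium waves that accompany rhythmic changes of vessel diameter.

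The samples compared were brain vessel cells of 6 R182C-TgN3 mice, labelled CADASIL, and 5 WT-TgN3 mice, labelled control. CADASIL is an inherited disease of small brain vessels caused by variants of the receptor NOTCH3, which SMC and PC carry. Both genotypes had their own mouse Notch3 gene and a human NOTCH3 transgene, which held the R182C change in the first group and the wild-type sequence in the second, and the sample titles name the lines Tg350 and Tg100. Mice were untreated, 6 or 9 months old (3 R182C-TgN3 and 3 WT-TgN3 mice of 6 months, and 3 and 2 of 9 months) and of both sexes, and carried 4 labelled batch dates. Vessel fragments were captured with beads against CD31, an endothelial protein, before the cells were separated, so that mural cells were recovered where they were attached to captured vessels. 1 droplet library of transcript 3′ ends was made per mouse.

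The 11 libraries held 66658 barcodes and from 17550806 to 64215050 UMIs, the counted molecules, and 58353 cells were kept. Cells were assigned by the number of marker genes with a UMI, and none of the 9 genes was a marker. This gave 1838 SMC (median 7935 UMIs per cell), 438 PC (2950), 2454 arterial, 15272 capillary and 1513 venous endothelial cells (EC) and 12520 microglia, which served as background. UMIs were summed per mouse and type where a mouse had at least 20 cells, and a level is given as counts per 1000000 UMIs of that sum (CPM). For PC this left 6 R182C-TgN3 and 3 WT-TgN3 mice, since WT-TgN3 2 and 5 had 17 PC each. The summed SMC markers (Acta2, Tagln, Myh11, Cnn1, Tpm2) ran from 26080 to 32190 CPM in SMC and from 205 to 504 CPM in PC, and the summed PC markers (Kcnj8, Abcc9, Atp13a5, Vtn, Higd1b, Cox4i2) from 407 to 619 CPM in SMC and from 17040 to 21240 CPM in PC. Markers of EC summed to 32.5 to 120 CPM in SMC and 118 to 461 CPM in PC, against 18840 to 21770 CPM in capillary EC. Human NOTCH3 was present in both genotypes, at 249 ± 64.9 CPM (SD, n = 6) in SMC of R182C-TgN3 mice and 40.7 ± 22.7 CPM (SD, n = 5) in those of WT-TgN3 mice, so the groups differed in the level of the transgene as well as in its sequence. Of the barcodes, 966 were listed in more than 1 library. They belonged to 1636 kept cells, of which 41 were SMC, 8 PC and 253 venous EC, and results that changed without them are given with both values.

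All 9 genes had UMIs in vascular cells, but in different ones. Cacna1c, Cacna1h and Ano1 were mural genes with only traces in EC, when EC were assigned by markers. Itpr1 and Atp2a2 were found in every type and were higher in SMC and PC than in EC. Itpr2 was high in PC and low in SMC, Ryr2 was high in SMC and near 0 in PC, Atp2b4 was shared by SMC and arterial EC, and Ryr3, with few UMIs anywhere, had its highest level in venous EC. Cell types were compared with edgeR's quasi-likelihood test on the sums, with mouse as a block, TMM scaling and Benjamini-Hochberg adjustment over 11375 genes. The mice are separate animals. Here p-values measure how the differences between types vary across mice, since the block takes out differences between libraries. In the genotype tests they measure the spread between mice. Fewer molecules of a gene per cell and fewer cells with the gene cannot be told apart in a sum.

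**Figure D1:**
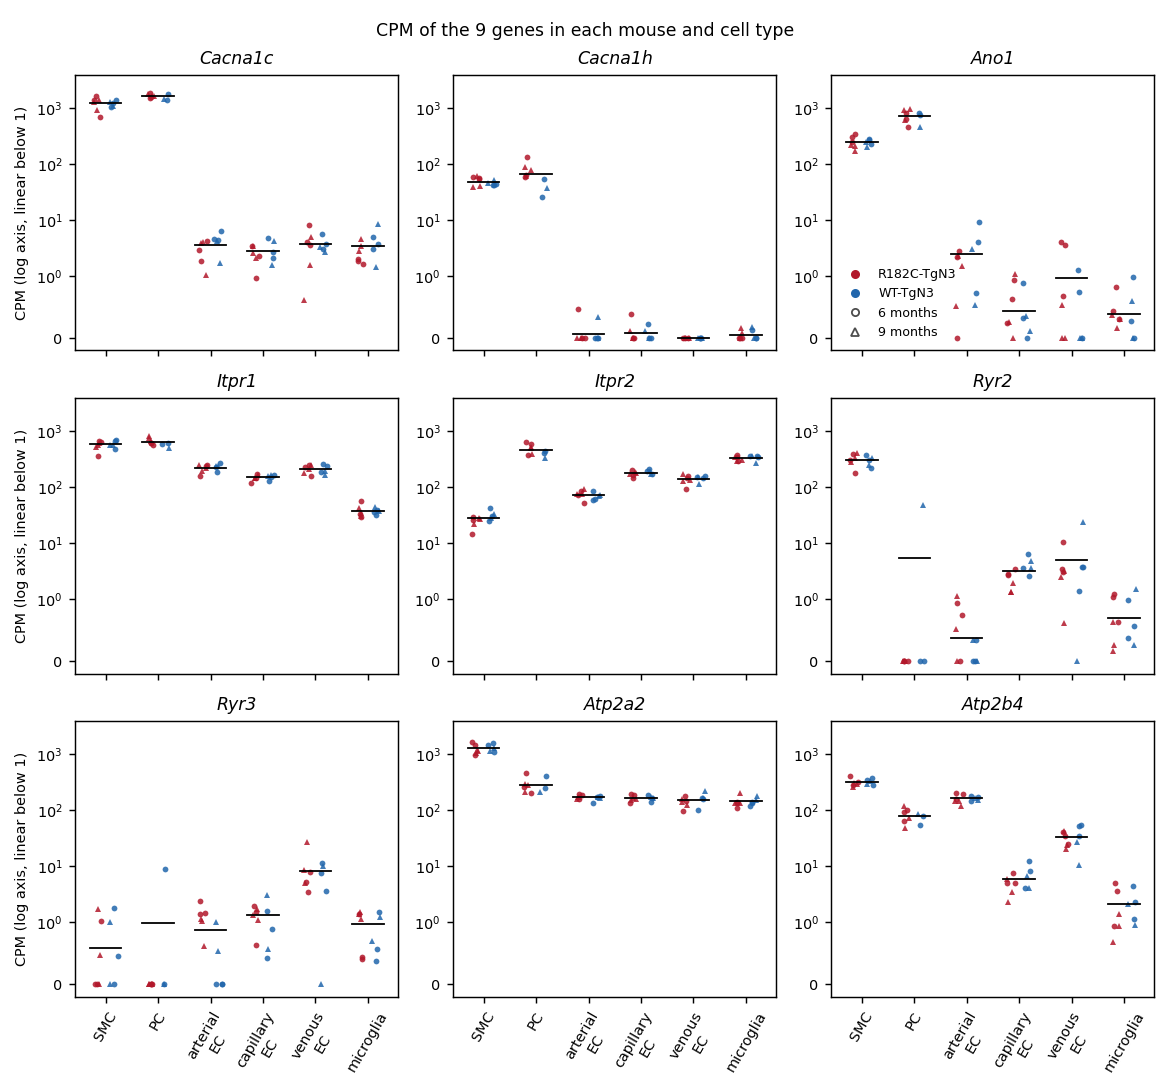
Level of each of the 9 genes in CPM, on an axis that is logarithmic above 1 and linear below, with 1 point per mouse in each of 6 cell types, coloured by genotype and shaped by age. Ano1 ran from 452 to 966 CPM in PC and from 168 to 348 CPM in SMC, and Ryr2 from 176 to 410 CPM in SMC with no UMI in 8 of 9 mice in PC.

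Cacna1c, the pore subunit of the L-type calcium channel through which depolarised mural cells take up calcium, was abundant in both mural types. In SMC the lowest mouse had 687 CPM, the median was 1300 and the highest had 1683 (mean 1227 ± 271, SD, n = 11). In PC the values were 1395, 1629 and 1900 CPM (mean 1634 ± 159, SD, n = 9). The ranges overlapped, and PC had the higher CPM in 8 of 9 mice. After TMM scaling the log2 difference of SMC from PC was 0.02 (SE 0.09, edgeR adjusted p = 0.87, 95% interval -0.15 to 0.20), and it was -0.44 (adjusted p = 1.8e-05) when library totals alone were used, a scaling that moved the median of all genes by -0.45. No order of SMC and PC is therefore given for Cacna1c. EC held a mean of 2.74 to 3.74 CPM in the 3 subtypes, close to the 3.44 CPM of microglia, and both mural types stood apart from them in every mouse.

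Cacna1h, the pore subunit of a T-type channel that opens near resting potential, was at a mean of 48.7 ± 8.03 CPM (SD, n = 11) in SMC, from 38.7 to 62.2 with a median of 46.2. In PC it was at 66.7 ± 31.2 CPM (SD, n = 9), from 25.8 to 132 with a median of 62.0, and this range enclosed that of SMC. The log2 difference of SMC from PC was -0.06 (SE 0.19, edgeR adjusted p = 0.85, 95% interval -0.43 to 0.32), and it was -0.51 (adjusted p = 0.024) with library totals alone. In EC the gene was at the limit of counting. There were 6 UMIs among 78004120 of capillary EC, 2 in arterial EC and none among 11503593 of venous EC. The SMC level was 617 times that of capillary EC (95% counting interval 282 to 1686). Against venous EC the lower end of the 95% counting interval was 147.6-fold. Taking 3 counts over all mice as the limit that 0 allows gave 181.9-fold. Intervals and limits of this kind cover counting error only.

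Ano1, which encodes the calcium-activated chloride channel TMEM16A, was higher in PC than in SMC. In SMC it ran from 168 to 348 CPM with a median of 248 (mean 249 ± 51.7, SD, n = 11), and in PC from 452 to 966 CPM with a median of 762 (mean 722 ± 190, SD, n = 9). The ranges did not overlap, and PC was above SMC in 9 of 9 mice. The difference was 2.26-fold (log2 of SMC against PC -1.18, SE 0.12, edgeR adjusted p = 1.9e-13). After each cell was thinned to 2000 UMIs, 31.0% ± 5.82 of SMC (SD, n = 11 mice) and 68.1% ± 10.8 of PC (SD, n = 8 mice) had an Ano1 UMI, against 0.0524% of microglia. Unthinned, the shares were 56.9%, 75.6% and 0.215%. Thinning left out 26 SMC and 88 PC with fewer UMIs. The EC means were 2.46 CPM in arterial, 0.438 in capillary and 0.974 in venous cells. Arterial EC exceeded capillary EC by 2.38 on the log2 scale (SE 0.47, edgeR adjusted p = 1.7e-05), on 50 and 32 UMIs in all.

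The traces of these 3 channels in EC depended on how EC were assigned. With types taken from clusters, which set no limit on mural markers in EC, arterial EC held 34.5 ± 28.0 CPM of Cacna1c, 1.32 ± 1.01 CPM of Cacna1h and 24.9 ± 21.6 CPM of Ano1 (SD, n = 11 each). Cacna1c and Cacna1h were then called higher in arterial than in capillary EC, by 3.48 (SE 0.31, edgeR adjusted p = 6.7e-14) and 3.56 (SE 0.42, adjusted p = 2.7e-10) on the log2 scale, against 0.36 (adjusted p = 0.29) and 0.19 (adjusted p = 0.86) with EC assigned by markers. SMC markers summed to 20.8 to 1597 CPM in the arterial EC of the clusters and to 11.7 to 29.1 CPM in those assigned by markers, and their part in the difference was not tested.

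Among the store channels, Itpr1, the type 1 IP3 receptor, was present in all vascular types. In SMC it ran from 356 to 693 CPM with a median of 572 (mean 580.5 ± 99.7, SD, n = 11), and in PC from 501 to 817 CPM with a median of 620 (mean 637 ± 95.3, SD, n = 9). These ranges overlapped, and SMC was above PC in 5 of 9 mice by CPM. With TMM scaling SMC were higher by 0.25 on the log2 scale (SE 0.08, edgeR adjusted p = 0.0086), but with DESeq2's size factors the difference was 0.11 (adjusted p = 0.24) and with library totals alone it turned to -0.21 (adjusted p = 0.022). The call therefore rests on the scaling. Both mural types were above every EC subtype in all mice, where the means were 224 ± 33.7 CPM in arterial, 151 ± 16.1 in capillary and 211 ± 36.7 in venous cells (SD, n = 11 each). Arterial and venous EC exceeded capillary EC by 0.56 (SE 0.06) and 0.53 (SE 0.06) on the log2 scale, with edgeR adjusted p of 1.2e-12 and 1.3e-10.

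Itpr2, the type 2 IP3 receptor, was low in SMC and high in PC. In SMC it ran from 14.4 to 41.5 CPM with a median of 27.5, and in PC from 330 to 633 CPM with a median of 444. No mouse's SMC reached the level of any PC sum. The level in PC was 12.3-fold that of SMC (log2 of SMC against PC -3.63, SE 0.11, edgeR adjusted p = 3.4e-37). SMC also held less Itpr2 than any EC subtype in 11 of 11 mice. The EC means were 72.6 ± 12.3 CPM in arterial, 182.4 ± 19.5 in capillary and 141 ± 22.9 in venous cells (SD, n = 11 each), and arterial EC fell below capillary EC with no overlap (log2 -1.33, SE 0.06, edgeR adjusted p = 4.4e-29). The order was thus PC, capillary, venous and arterial EC and then SMC, with overlapping ranges for capillary and venous EC and, narrowly, for venous and arterial EC. The log2 difference of venous from capillary EC was -0.37 (SE 0.06, edgeR adjusted p = 5.5e-07). Microglia held 331 ± 35.1 CPM of Itpr2 (SD, n = 11), and all 7 microglial markers had UMIs in PC and in SMC, at sums of 264 to 900 CPM and 163 to 535 CPM. Their part in the PC level was not tested. After thinning to 2000 UMIs, 5.45% of SMC and 54.9% of PC had an Itpr2 UMI, and 16.9% and 67.7% did unthinned.

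Ryr2, the ryanodine receptor of cardiac and vascular muscle, was an SMC gene. In SMC it ran from 176 to 410 CPM with a median of 303 (mean 307 ± 72.8, SD, n = 11). In PC 8 of 9 mice had no UMI, and WT-TgN3 4 had 4 UMIs, all in 1 cell of 4987 UMIs that carried 5 PC markers and 1 SMC marker. The pooled SMC level was 96.2 times that of PC (95% counting interval 37.5 to 353). When this mouse was left out of both types, the lower end of the interval was 95.7-fold. There 0 of 1183551 UMIs of 8 mice in PC allows 2.54 CPM by the limit of 3 counts, which gave 117.8-fold. SMC were called higher with an edgeR adjusted p of 2.5e-24. Unthinned, 69.1% of SMC and 0.556% of PC had a Ryr2 UMI, against 0.381% of microglia, and the share in PC came from that single cell. After thinning to 2000 UMIs 37.1% of SMC and 0.126% of microglia had one. In EC the gene was at 3.11 ± 1.48 CPM in capillary, 5.07 ± 6.76 in venous and 0.366 ± 0.422 in arterial cells (SD, n = 11 each). Arterial EC were below capillary EC by the gate (log2 -2.75, SE 0.54, edgeR adjusted p = 1.5e-05, 8 and 222 UMIs), but not when types were taken from clusters (0.02, adjusted p = 0.97).

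Ryr3, a ryanodine receptor better known from neurons, was scarce in mural cells, with 9 UMIs in SMC and 1 in PC. Venous EC held 116 UMIs, from 0 to 27.5 CPM with a median of 7.58 (mean 8.18 ± 7.18, SD, n = 11), and capillary EC 107 UMIs at 1.34 ± 0.761 CPM. R182C-TgN3 1 gave 52 of the venous UMIs, and the ranges of the types overlapped. The gene did not pass the filter on low counts. Without the filter venous EC exceeded capillary EC by 2.61 on the log2 scale (SE 0.26, edgeR adjusted p = 1.5e-22), a test added after the values were seen, and the ratio of pooled levels was 7.35 (95% counting interval 5.60 to 9.65). Leaving out R182C-TgN3 1 gave 2.21 (adjusted p = 2.1e-11), and leaving out shared barcodes gave 2.49.

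The pumps were both higher in SMC. Atp2a2 encodes SERCA2, which returns calcium to the store. It ran from 986 to 1668 CPM with a median of 1194 in SMC and from 201 to 453 CPM with a median of 264 in PC, with no overlap. The difference was 6.25-fold (log2 2.64, SE 0.09, edgeR adjusted p = 4.8e-35). Means in EC lay between 151 and 170 CPM, close to the 144 CPM of microglia. PC exceeded capillary EC by 0.55 (SE 0.10, edgeR adjusted p = 5.7e-06), and neither arterial EC (0.06, SE 0.06, adjusted p = 0.41) nor venous EC (-0.13, SE 0.06, adjusted p = 0.11) passed the threshold against capillary EC. Venous EC passed it without the filter on low counts (-0.17, edgeR adjusted p = 0.028), with doublets kept (-0.16, adjusted p = 0.043) and without WT-TgN3 5 (-0.18, adjusted p = 0.016), and arterial EC with types from clusters (0.26, adjusted p = 5.0e-05).

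Atp2b4 encodes PMCA4, a pump that moves calcium out of the cell. In SMC it ran from 262 to 408 CPM with a median of 304 (mean 318.5 ± 45.7, SD, n = 11), and in PC from 48.1 to 120 CPM with a median of 77.5 (mean 79.6 ± 23.3, SD, n = 9). SMC were 5.18-fold higher, again without overlap (log2 2.37, SE 0.17, edgeR adjusted p = 8.4e-19). The gene also differed among the EC subtypes. Arterial EC held 162 ± 25.3 CPM, venous EC 33.3 ± 13.6 and capillary EC 5.83 ± 2.71 (SD, n = 11 each), and arterial EC were above both in every mouse. On the log2 scale arterial EC exceeded capillary EC by 4.88 (SE 0.10, edgeR adjusted p = 6.1e-46) and venous EC exceeded them by 2.74 (SE 0.16, adjusted p = 4.4e-23). SMC markers summed to 11.7 to 29.1 CPM in these arterial EC, against the 26080 to 32190 CPM of SMC.

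Counted together, 6 of the 8 genes tested were called between SMC and PC, 4 higher and 2 lower in SMC, where 44.6% of all genes tested were called (25.9% higher and 18.7% lower). Against capillary EC, SMC differed in 8 of 8 (7 higher, 1 lower) on a background of 77.8% (37.7% higher, 40% lower), and PC in 7 of 8, all higher, on a background of 52% (21.5% higher, 30.5% lower). Arterial EC differed from capillary EC in 5 of 8, on a background of 52.4% (25.1% higher, 27.3% lower). Venous EC differed in 3 of 8, on a background of 44.3% (22.2% higher, 22.1% lower). Both shares lie near those of all genes. The median log2 difference of the 8 genes was 0.14 between SMC and PC, 6.51 between SMC and capillary EC and 2.83 between PC and capillary EC, and it was 0.07, -0.04 and -0.12 over all genes tested. With library totals alone the share of called genes that were higher moved from 58.1% to 29.1% for SMC against PC, from 48.5% to 34.3% for SMC against capillary EC and from 41.3% to 53.3% for PC against capillary EC. The directions of Ano1, Itpr2, Ryr2, Atp2a2 and Atp2b4 between SMC and PC were the same under every scaling tried.

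**Figure D2:**
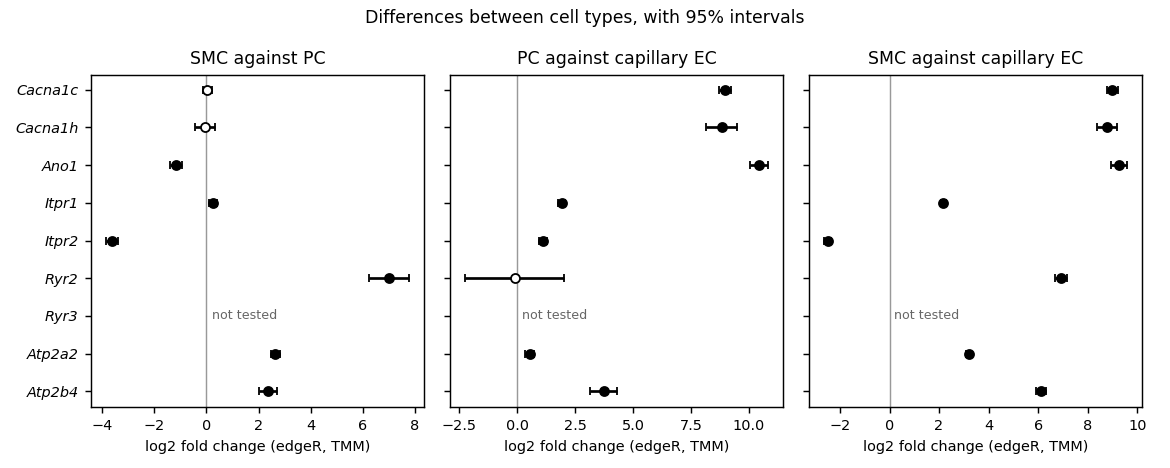
Log2 fold changes of the 9 genes by edgeR with TMM scaling for 3 comparisons of cell types, with 95% intervals, where filled points passed an adjusted p of 0.05 and Ryr3 was not tested. Between SMC and PC the estimates run from -3.63 for Itpr2 to 7.02 for Ryr2, the latter a fitted value that depends on 4 UMIs in PC, and Cacna1c and Cacna1h lie near 0.

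The promoter windows of the genes that split the mural types are shown for Ano1 and Itpr2, higher in PC, and Ryr2 and Atp2b4, higher in SMC. Each is the 250 bases before a start in RefSeq (GRCm38.p6), 5′ to 3′ on the gene's strand, which is the minus strand for all 4. A protein-coding transcript of GENCODE vM21 starts within 45 bases after each window. For Itpr2 and Ryr2 the window borders the outermost start of the gene, but for Ano1 and Atp2b4 it lies 13.4 and 47.3 kb inside the gene, since longer transcripts start further upstream, and those outer starts were not searched. Capitals mark matches on either strand to TGGGAA, the core of the site of RBPJ, the DNA-binding partner of Notch receptors. The windows are chr7:144738574-144738823 for Ano1, chr6:146502224-146502473 for Itpr2, chr13:12106946-12107195 for Ryr2 and chr1:133753748-133753997 for Atp2b4.
Ano1: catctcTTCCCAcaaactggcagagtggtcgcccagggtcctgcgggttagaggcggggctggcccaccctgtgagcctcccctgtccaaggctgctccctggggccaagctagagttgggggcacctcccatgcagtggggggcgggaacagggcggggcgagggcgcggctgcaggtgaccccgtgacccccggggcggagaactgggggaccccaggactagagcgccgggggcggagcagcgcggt
Itpr2: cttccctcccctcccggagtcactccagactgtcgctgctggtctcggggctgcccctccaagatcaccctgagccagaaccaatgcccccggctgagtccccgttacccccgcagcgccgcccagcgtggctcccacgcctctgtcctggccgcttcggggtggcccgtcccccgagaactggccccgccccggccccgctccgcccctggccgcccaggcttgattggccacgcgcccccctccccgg
Ryr2: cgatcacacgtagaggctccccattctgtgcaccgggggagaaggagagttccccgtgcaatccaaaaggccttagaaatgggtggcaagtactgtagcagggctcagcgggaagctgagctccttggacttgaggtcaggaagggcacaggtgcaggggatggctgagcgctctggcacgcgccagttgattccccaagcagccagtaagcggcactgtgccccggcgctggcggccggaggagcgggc
Atp2b4: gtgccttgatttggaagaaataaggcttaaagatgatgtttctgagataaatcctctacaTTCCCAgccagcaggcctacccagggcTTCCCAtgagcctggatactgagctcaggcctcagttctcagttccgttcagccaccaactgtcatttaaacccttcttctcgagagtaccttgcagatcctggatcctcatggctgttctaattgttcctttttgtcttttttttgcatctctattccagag

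Ano1 held 1 RBPJ core and Atp2b4 held 2, both in windows inside the gene, and Itpr2 and Ryr2 held none, while 21.6% of the 32536 windows of this length in the RefSeq table had at least 1. The CArG box, the site of serum response factor in muscle genes, was searched on both strands and had no match in these windows, as in most of the table, where 1.48% had one. The E-box CANNTG, also searched on both strands, had 1 match in Ano1, 2 in Ryr2, 1 in Atp2b4 and none in Itpr2, and occurred in 66.2% of all windows. No match overlapped another. Cacna1c has 3 entries in the table, each with 1 E-box and no match to the other motifs, and Cacna1h, Itpr1, Ryr3 and Atp2a2 have none. Matches describe the letters of these windows. On mm10 (GENCODE vM21) the 9 genes span from 48.7 kb (Atp2a2, chromosome 5) to 609.2 kb (Cacna1c, chromosome 6), and all but Itpr1 lie on the minus strand.

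Across SMC the genes that split the mural types also varied. SMC with more PC markers detected held more Ano1 and less Ryr2. In SMC with 0, 1, 2 and 3 of the 6 PC markers (366, 623, 520 and 329 cells, with median depths of 7490 to 8488 UMIs), Ryr2 was at 459, 360, 235 and 160 CPM. Over the same classes Ano1 was at 116, 166, 300.2 and 385 CPM. A further 143 cells with at least 4 SMC and 4 PC markers, which the gate left out, had 75.2 CPM of Ryr2 and 643 CPM of Ano1, and all PC had 2.92 and 784 CPM. Both genes thus lay between SMC and PC in the cells that carried both marker sets.

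The difference held in each animal. Within mice, Ano1 was at 160 ± 40.6 CPM in SMC with 0 or 1 PC marker and at 347 ± 79.5 CPM in SMC with 2 or 3 (SD, n = 11), and was higher in the second class in 11 of 11 mice. Ryr2 was at 391 ± 96.4 and 212.5 ± 50.6 CPM and was lower in the second class in 11 of 11. Itpr2 was at 18.7 ± 9.09 and 37.3 ± 7.80 CPM and was higher in 11 of 11. The pumps did not follow the SMC to PC order along this range. Atp2a2 was at 1153 ± 224 and 1420 ± 242 CPM and Atp2b4 at 284 ± 48.3 and 357 ± 55.3 CPM, both higher with 2 or 3 PC markers in 11 of 11 mice, and in cells with both marker sets they were at 1319 and 361 CPM, against 268 and 80.2 CPM in PC. Cacna1c was higher in 11, Itpr1 in 10 and Cacna1h in 9 of 11 mice. This split was chosen after values were seen and carries no test, and the share of all genes that rose in it was not counted. Acta2, the smooth muscle actin, went from 11700 to 8702 CPM over the SMC classes. The PC marker Kcnj8 was at 0 to 2.09 CPM in these classes, 34.8 CPM with both marker sets and 865 CPM in PC. Over all SMC, Kcnj8 and Abcc9 were at 0.79 and 1.45 CPM, and Higd1b, Vtn, Cox4i2 and Atp13a5 at 230, 160, 81.7 and 21.0 CPM. The count of PC markers in SMC therefore rested mainly on the latter genes. The cells with both marker sets had a median of 8140 UMIs, within the range of the SMC classes, and whether they include doublets of SMC with PC that escaped removal was not tested.

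**Figure D3:**
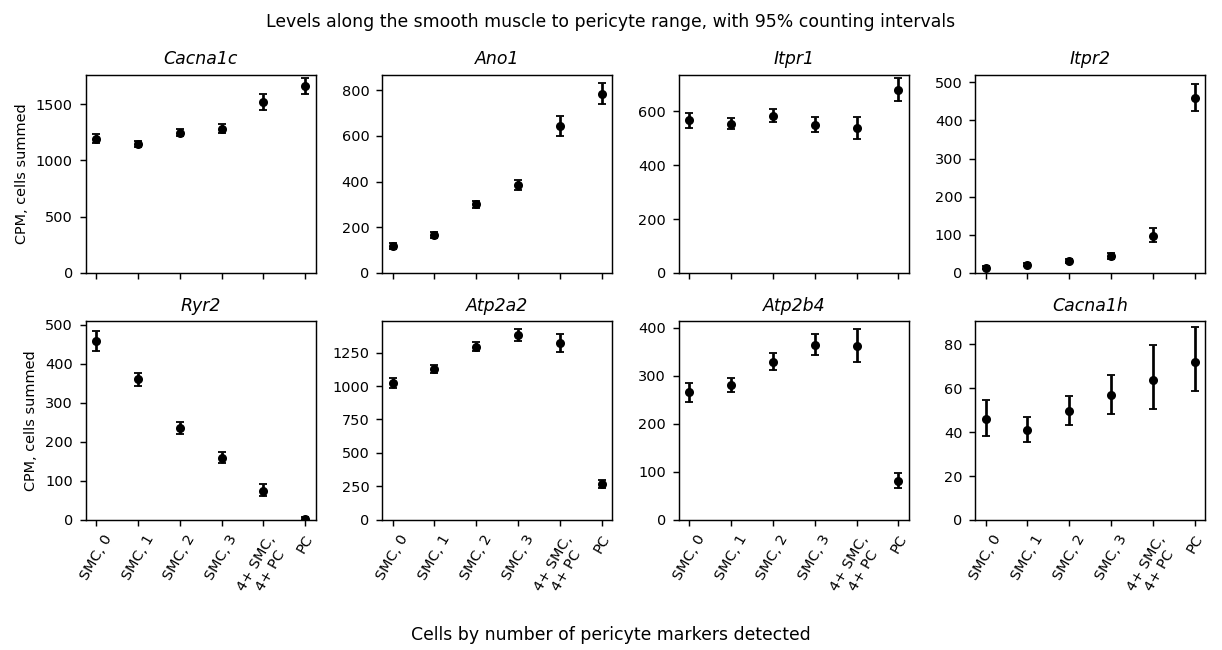
Summed level in CPM of each gene in SMC with 0 to 3 PC markers detected, in cells with at least 4 SMC and 4 PC markers, and in PC, with 95% intervals for counting error only. Ryr2 steps down from 459 to 2.92 CPM and Ano1 up from 116 to 784 CPM, while Atp2a2 and Atp2b4 stay high until the PC class.

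The other genes of the pathway were taken from a list of 95 genes in 10 roles, the 9 members apart, of which 80 were tested. Between SMC and PC, 38 were higher and 19 lower in SMC (71.2% called, against 44.6% of all genes). The counts here and by role below use TMM scaling alone, and the list was not tested under another scaling. Library totals alone moved the median of all genes by -0.45 in this comparison, so calls on small differences can depend on the scaling. Among subunits of voltage-gated calcium channels, 6 of 6 tested were higher in SMC. The auxiliary subunits Cacna2d1 and Cacnb2 were at means of 323 and 1323 CPM in SMC and 195 and 488 CPM in PC (log2 1.16, SE 0.10, and 1.81, SE 0.17). Cacnb4 and Cacna1g, another T-type pore, were at 105 and 41.3 CPM in SMC and at 1.97 and 5.35 CPM in PC.

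Of the store release partners 5 of 6 were higher in SMC and none was lower. Jph2, which ties the store to the plasma membrane, was at 170 CPM in SMC and 5.72 CPM in PC (log2 5.16, SE 0.27), and Tmem38b, a counter-ion channel of the store, at 151 and 26.6 CPM (3.12, SE 0.19). Mrvi1, a partner of the IP3 receptor, was at 576 and 296 CPM (1.33, SE 0.11). Itpr3, the type 3 receptor, was at 50.9 CPM in capillary EC and 0.842 and 0.333 CPM in SMC and PC.

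The store proteins split by cell type. Of 7 tested, 2 were higher and 5 lower in SMC. Pln, phospholamban, which inhibits SERCA2, was at 1313 ± 95.3 CPM in SMC and 1.32 ± 3.00 CPM in PC (log2 10.10, SE 0.25, edgeR adjusted p = 5.8e-42). PC instead held more of the SERCA pump Atp2a3 (345 against 49.0 CPM, log2 -2.41, SE 0.14) and of the calcium-binding store protein Casq2 (482 against 37.3 CPM, -3.29, SE 0.13). Among exchangers and pumps of the plasma membrane 4 of 6 were higher and 1 lower in SMC. The sodium-calcium exchanger Slc8a1 was at 489 and 108 CPM (log2 2.23, SE 0.34), and Slc24a3, a potassium-dependent exchanger, went the other way (17.1 and 167 CPM, -2.99, SE 0.30).

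Among 11 TRP and related channels 2 were higher and 3 lower in SMC, which makes 45.5% called and is close to the 44.6% of all genes. The lower genes included the cation channel Trpc4, at 274 CPM in PC and 17.8 CPM in SMC (log2 -3.45, SE 0.16). Store-operated entry had 1 of 4 higher and 2 lower, among them the store sensor Stim2, at 118 CPM in PC and 14.6 CPM in SMC (-2.59, SE 0.17). Of 10 genes for chloride channels and chloride loading 1 was higher and 2 lower, and the 30% called is below the share of all genes. Slc12a2, the cotransporter NKCC1 that loads cells with the chloride ANO1 lets out, was at 731 ± 147 CPM in PC (SD, n = 9) and 40.3 ± 3.94 CPM in SMC (SD, n = 11), with a log2 difference of -3.72 (SE 0.11, edgeR adjusted p = 5.1e-39). Its order was that of Ano1.

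Upstream of the IP3 receptors, 6 of 11 genes were higher and 3 lower in SMC. Plcb1, a phospholipase C, was at 64.8 and 16.3 CPM in SMC and PC and at 1667 CPM in capillary EC, and Rgs5, a brake on G protein signals, was at 5764 CPM in PC and 923 CPM in SMC (log2 -2.08, SE 0.18). Downstream, 8 of 12 calcium sensors and effectors were higher and 1 lower in SMC, with Mylk, the kinase of myosin light chain, at 2742 and 425 CPM (3.10, SE 0.10) and Camk2g at 498 and 59.6 CPM (3.46, SE 0.13). Of 7 genes of mitochondrial uptake 3 were higher and 2 lower, and the uniporter Mcu was at 23.6 CPM in SMC and 70.0 CPM in PC (-1.15, SE 0.22).

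**Figure D4:**
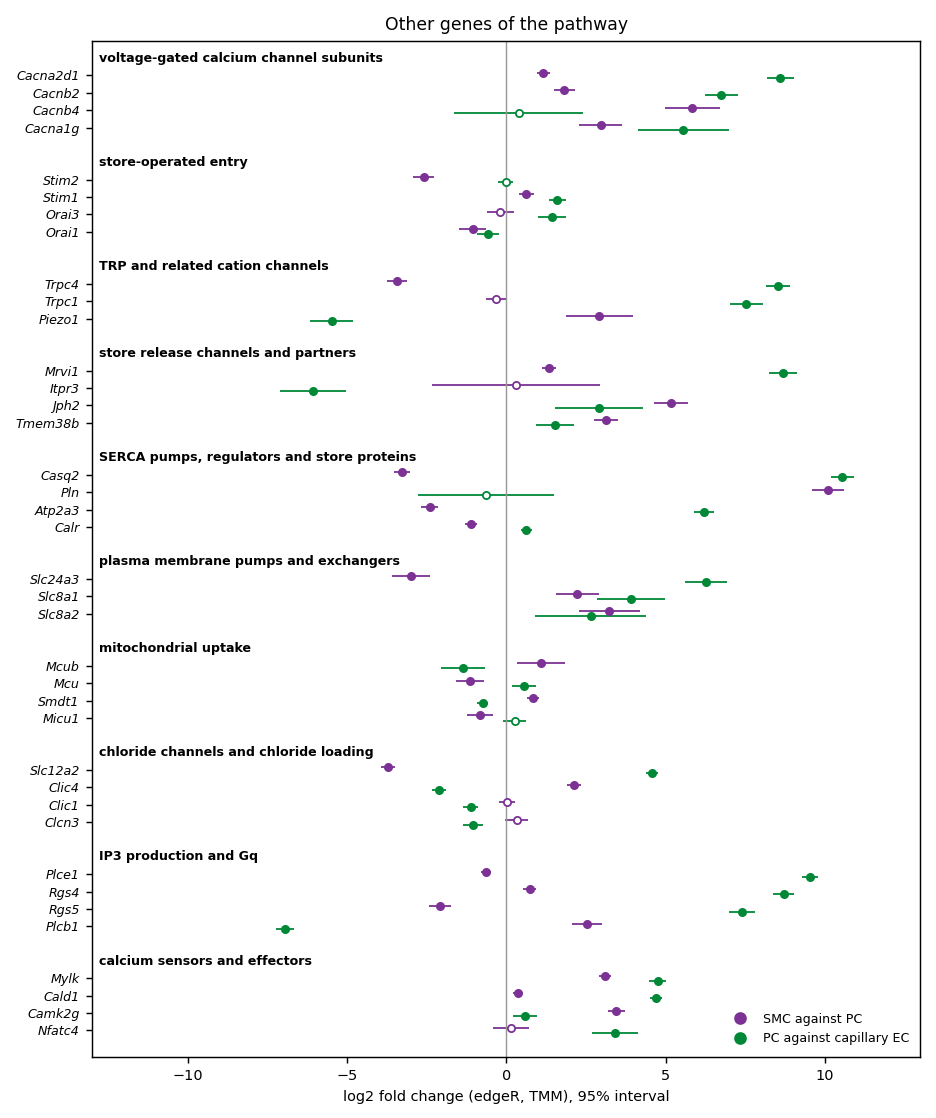
Log2 fold changes by edgeR with 95% intervals for up to 4 genes of each role, SMC against PC in purple and PC against capillary EC in green, where filled points passed an adjusted p of 0.05. Pln lies at 10.10 for SMC against PC, and Slc12a2, Trpc4 and Casq2 lie between -3.72 and -3.29.

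Over 64 sums of the 5 vascular types and microglia, the genes whose log2 CPM was most like each member's were named by Pearson correlation among 11704 genes, as a description, since points share mice, libraries and cell types. Cacna1c was most like Slc38a11 and Ednra, the endothelin receptor (r = 0.99 each), Cacna1h like Foxs1 and S1pr3 (0.99 each), and Ano1 like Arhgef17 (0.99) and Tbx2 (0.98). Itpr1 was most like Pkia (0.98) and Dag1 (0.97), and Itpr2 like Wdfy3 (0.94) and Rgl1 (0.93). Atp2a2 was most like Myocd (0.95), the coactivator of smooth muscle genes, and Ppp1r12a (0.95), and Atp2b4 like Mylk (0.95) and Rnd3 (0.94). Among the genes nearest Ryr2 was 4930520O04Rik (0.94). Ryr3 had the weakest likeness, with Col6a6 (0.77) and Lrg1 (0.77), the latter a gene of venous EC.

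Between genotypes no member passed the threshold in any cell type. In SMC 0 of 8 genes tested were called (background 0.012%, 1 of 8367 genes), and in PC 0 of 5 (background 0.0872%, 2 of 2293 genes, 0.0436% in each direction). In arterial, capillary and venous EC 0 members were called, on a background of 0% in each. At an unadjusted p under 0.05 edgeR had 210, 118, 203, 256 and 273 genes in SMC, PC, arterial, capillary and venous EC, of which 1 was a member, and DESeq2 called no member either.

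In SMC, where the data were deepest among mural cells, the log2 differences of R182C-TgN3 from WT-TgN3 mice ran from -0.27 for Itpr2 (SE 0.18, edgeR adjusted p = 1.00) to 0.15 for Cacna1h (SE 0.15). Cacna1c was at 1233 ± 359 CPM in R182C-TgN3 (SD, n = 6) and 1220 ± 151 CPM in WT-TgN3 mice (SD, n = 5), a log2 difference of 0.04 with a 95% interval of -0.27 to 0.35. Ano1 was at 250.2 ± 67.1 and 247 ± 32.3 CPM (0.02, -0.29 to 0.33), and Ryr2 at 315 ± 84.4 and 296 ± 64.1 CPM (0.12, -0.20 to 0.44). The ranges of the genotypes overlapped for all 9 genes in SMC. The spread was wider in R182C-TgN3 mice for Cacna1c, and R182C-TgN3 6 had the lowest SMC level of Cacna1c, Itpr1, Itpr2, Ryr2 and Atp2a2, although its SMC (132 cells, median 7275 UMIs) were within the depth range of the other mice.

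The pumps and the IP3 receptors had overlapping ranges as well. Atp2a2 was at 1249 ± 268 and 1315 ± 191 CPM in SMC of the genotypes (log2 -0.05, 95% interval -0.31 to 0.21), and Atp2b4 at 311 ± 51.7 and 327 ± 41.2 CPM (-0.05, -0.29 to 0.18). Itpr1 was at 568 ± 117 and 595 ± 84.9 CPM, and Itpr2 at 24.3 ± 5.39 and 31.4 ± 6.44 CPM with ranges of 14.4 to 28.8 and 24.3 to 41.5. With batch or sex as a covariate 0 members were called in either mural type. Batches 1 and 3 each held 2 mice of each genotype, batch 4 held 1 of each and batch 2 held R182C-TgN3 3 alone.

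In PC the WT-TgN3 group had 3 mice, and precision was lower. Log2 differences were 0.14 for Cacna1c (SE 0.16), 0.15 for Ano1 (SE 0.22), 0.27 for Itpr1 (SE 0.19), 0.33 for Itpr2 (SE 0.21) and -0.05 for Atp2a2 (SE 0.25), with edgeR adjusted p from 0.92 to 1.00. Cacna1h, below the filter, was the 1 of 9 members whose PC ranges did not overlap, at 58.5 to 132 CPM in 6 R182C-TgN3 mice and 25.8 to 53.2 CPM in 3 WT-TgN3 mice, on 80 and 11 UMIs. Of the mice left out for their 17 PC, WT-TgN3 2 had 89.6 CPM and WT-TgN3 5 had 51.0 CPM of Cacna1h, and with them the ranges overlap. The share of all genes whose genotype ranges lie apart was not counted for either mural type.

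The 1 member among the genes below that unadjusted threshold was Ryr2 in capillary EC. It ran from 1.31 to 3.44 CPM in R182C-TgN3 mice (median 2.28) and from 2.57 to 6.26 CPM in WT-TgN3 mice (median 3.61), a log2 difference of -0.88 (SE 0.30, edgeR adjusted p = 1.00). The ranges overlapped, and the sums were 88 and 134 UMIs. No other gene of the pathway list was called between genotypes in any of the 5 types.

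**Figure D5:**
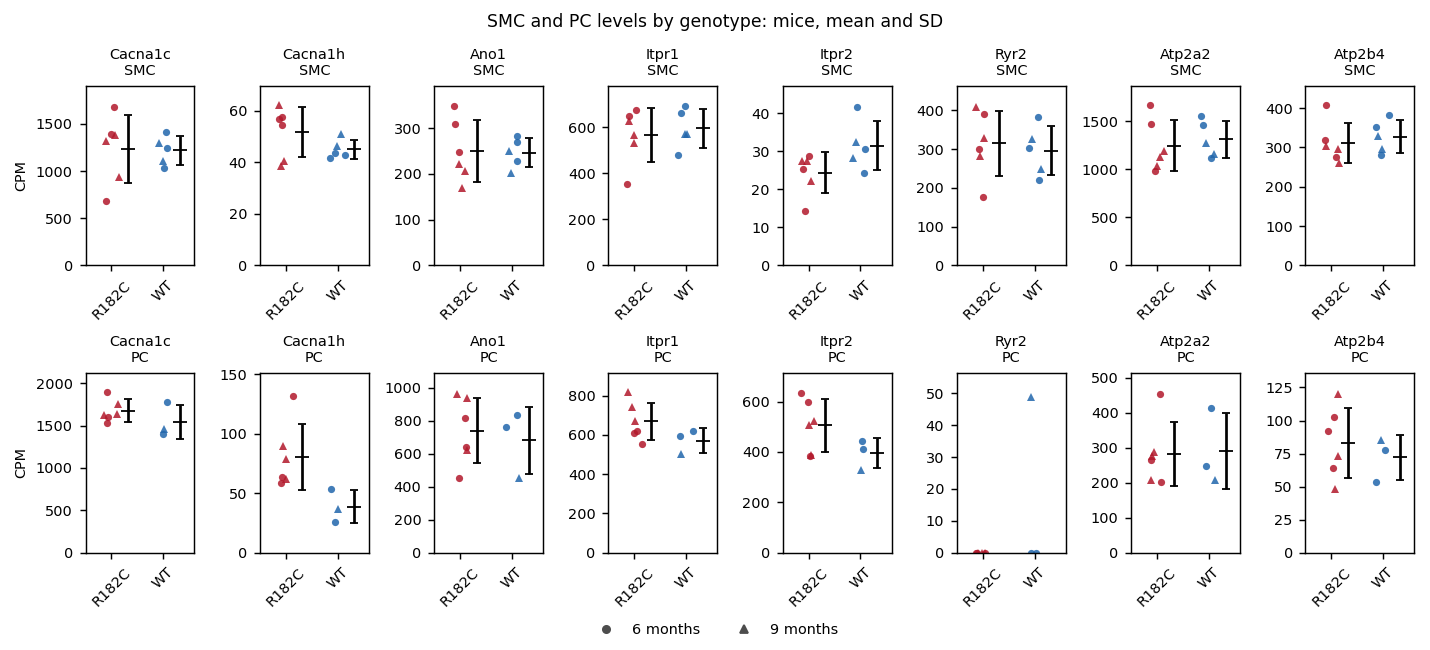
Level of each gene but Ryr3 in CPM in SMC and in PC by genotype, with 1 point per mouse shaped by age and the mean with SD beside them, except for Ryr2 in PC, where 8 of 9 mice are at 0. The groups overlap in every panel but Cacna1h in PC, where the ranges overlap once the WT-TgN3 mice left out for few PC are added.

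Whether the genotype difference depended on age was tested by an interaction term (the difference at 9 months minus that at 6 months). No batch date held mice of both ages, so this term cannot tell age from batch. No member was called in SMC (background 0%), PC (background 0.118%, 0.0591% in each direction) or the EC subtypes (background 0% in each). Of the members in mural cells Ano1 in PC had the largest interaction, 1.25 on the log2 scale (SE 0.45, edgeR adjusted p = 0.56). At 9 months the 3 R182C-TgN3 mice had 626, 939 and 966 CPM and the only WT-TgN3 mouse in the fit 452 CPM, and at 6 months 3 R182C-TgN3 mice had 456 to 818 CPM and 2 WT-TgN3 mice 762 and 834 CPM. WT-TgN3 5, a mouse of 9 months left out for its 17 PC, had 867 CPM. In SMC the interactions ran from -0.41 for Cacna1h (SE 0.30) to 0.36 for Ryr2 (SE 0.33). Ryr2 in venous EC had an interaction of -2.90 (SE 1.38, edgeR adjusted p = 1.00) on 41 UMIs in 11 mice.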

How the data were processed

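Single-cell RNA sequencing libraries of brain vessel cells from 11 mice were used. The authors made the counts with Cell Ranger 7.0.0 on the mm10 transcriptome with human NOTCH3 added, per their methods and processing notes, and deposited UMI counts per gene and barcode without normalization. Whether intronic reads were counted is not given in the sources used here. No column of per-sample values was left unused (0 such columns).

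A barcode entered with 500 or more genes detected and a mitochondrial share of UMIs up to 10%. From each library the barcodes that scored highest against simulated doublets were then taken out, at a rate of 0.8% for every 1000 barcodes (3272 of 61625). Per cell, at least 4 of 5 SMC, 3 of 6 PC, 5 of 7 EC or 6 of 7 microglia markers had to be detected, with at most 2 EC markers in mural cells, 3 PC markers in SMC and 2 SMC markers in PC. EC took the subtype whose marker share led by at least 0.3, and 12734 EC had none. Of the SMC and PC, 779 and 34 had exactly the minimum number of markers. Among cells past the filters, 830 with at least 4 SMC markers and 398 with at least 3 PC markers had over 2 EC markers. These were left out, and their levels of the members were not examined. Fibroblasts reached at most 14 cells in a mouse and gave no sum.

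Counts were summed per mouse and type with at least 20 cells and tested with edgeR 4.0.16 in R 4.3.3 (filterByExpr, TMM, quasi-likelihood test, Benjamini-Hochberg adjustment, call at an adjusted p under 0.05). Cell types were compared in 1 fit with mouse as a block, and genotypes within each type without covariates and without ribosomal, mitochondrial, Gm and Rik genes, as the study did. CPM values use library totals. Summed mural samples held from 416544 to 3021764 UMIs in SMC and from 68400 to 333334 in PC. On simulated counts, recovery was taken over the changed genes that passed the filter. Between SMC and PC, 65 of 96 2-fold and 75 of 104 4-fold changes passed, and 84.6% and 100% of those were recovered (6230 genes). For genotype in SMC it was 89 of 98 and 96 of 102, with 86.5% and 100% recovered (8384 genes). For genotype in PC it was 76 of 107 and 66 of 93, with 50% and 100% recovered (2310 genes). False calls were 2.99%, 5.46% and 3.7% of calls, in that order. The simulated SMC and PC sums left out the other types and any effect of the mouse.

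The genes named are the 9 members, the 2 genes most like each, up to 4 pathway genes per role with the largest absolute fold change among those past the threshold in SMC against PC or PC against capillary EC, and markers. Atp2b2, which the rule also names, had no UMI in PC and is given no fold, and some genes that these rules name are not reported here. Members, lists and rules were chosen with earlier results of these data known. The alternatives were other scalings, DESeq2 1.42.0, no filter, no mouse block, batch, sex or replicate block, all gene classes, clusters or a stricter gate, doublets kept, at least 1000 genes, no thinning, each mouse left out and, added after seeing the data, shared barcodes left out.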

Additional observations from a re-analysis of the deposited data

Results flagged for a closer look

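In 53 groups of 4 to 10 mice with at least 50 summed UMIs, 2 members had a mouse far from the rest of its group, where chance gives about 1 in 20. Ryr3 in venous EC was at 27.5 CPM in R182C-TgN3 1, on 52 UMIs, and the next R182C-TgN3 mouse was at 8.62 CPM. Atp2a2 in PC was at 453 CPM in R182C-TgN3 5, on 31 UMIs, and the next was at 288 CPM.

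Microglia, which entered no test of the report and served there as background, held 4 members above the limit that a count of 0 allows in every mouse. Itpr2 was at a mean of 331 CPM (269 to 377, 21971 UMIs), Atp2a2 at 144 CPM (110.5 to 200.5, 10541 UMIs), Itpr1 at 37.8 CPM (29.4 to 56.5, 2558 UMIs) and Cacna1c at 3.44 CPM (1.46 to 8.45, 225 UMIs).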

How the results depend on the processing

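Of 41 member fold changes between cell types, 34 kept their direction in every setting and 29 kept direction and call. For SMC against PC, Cacna1c was -0.13 with DESeq2's size factors and with DESeq2, -0.44 with library totals alone, -0.0012 with doublets kept, -0.023 without shared barcodes and -0.038 to 0.14 without a mouse. Cacna1h was 0.012 without the filter, 0.23 with clusters and -0.12 to 0.047 without a mouse, and Itpr1 was -0.21 with library totals alone. Ryr2 in PC against capillary EC was 0.090, 0.29 and 0.74 with library totals alone, DESeq2 and clusters, and -5.70 to 0.10 without a mouse (-5.70 without WT-TgN3 4). Against capillary EC, Cacna1h was 1.38 in venous EC with DESeq2, and in arterial EC -0.17 with the stricter gate and -0.20 to 0.34 without a mouse (-0.20 without WT-TgN3 4). Ryr2 in arterial EC was 0.021 with clusters. Gained calls against capillary EC were, with clusters, Cacna1c at 3.48, Cacna1h at 3.56 and Atp2a2 at 0.26 in arterial EC and Cacna1c at 1.13 and Ano1 at 1.71 in venous EC. In venous EC Ano1 was also called with the stricter gate (2.43), and Atp2a2 was at -0.17 without the filter, -0.16 with doublets kept and -0.18 without WT-TgN3 5. The cause was not tested. Members called in venous against capillary EC were 3, and 5 without the filter, which lets Ryr3 in, 6 with clusters and 3 to 4 without a mouse. The counts of members called in the other comparisons of cell types were the same without each mouse.

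Without thinning, shares of cells with a UMI were 56.9% for Ano1, 16.9% for Itpr2, 69.1% for Ryr2 and 83.2% for Atp2b4 in SMC and 67.7% for Itpr2 in PC, against 31.0%, 5.45%, 37.1%, 45.4% and 54.9% thinned.

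No member was called between genotypes in any setting. Of 14 fold changes, those in SMC and PC and that of Ryr2 in capillary EC, 5 kept their direction. The other genotype fold changes in EC were not counted here. In SMC, Ano1 was -0.11 with clusters, -0.022 without shared barcodes and -0.071 to 0.12 without a mouse, and Cacna1c was -0.022 with the stricter gate and -0.061 to 0.15 without a mouse. Without a mouse Itpr1 was -0.089 to 0.056, Atp2a2 -0.14 to 0.0084 and Atp2b4 -0.12 to 0.0085. In PC, Ano1 was -0.093 with clusters, -0.071 with the stricter gate, -0.083 without shared barcodes and -0.071 to 0.32 without a mouse. Atp2a2 was 0.017 without the filter, 0.047 with the stricter gate and -0.22 to 0.28 without a mouse, and with clusters Cacna1c was -0.078 and Itpr2 -0.037. All genes called between genotypes were 1 in SMC, 2 with batch as a covariate, 3 without the filter and 1 to 2 without a mouse (2 without R182C-TgN3 3). In PC they were 2, and 1 with DESeq2, all gene classes, clusters, doublets kept, sex as a covariate, the stricter gate or no shared barcodes, 13 with batch as a covariate and 17 without the filter. Without a mouse they were 1 to 4 (4 without R182C-TgN3 1, 1 without R182C-TgN3 4, 5 or 6 or WT-TgN3 3 or 4). In arterial EC 0 to 1 were called, 1 without WT-TgN3 5.

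With the replicate block, a term for the shared age and mouse number of the labels, 8 genes were called in PC and Ano1 was -0.078. Deviations from the genotype means correlated between the mice of a pair with r of -0.129 to 0.0975 in SMC, -0.0493 to 0.107 in PC and -0.136 to 0.345 in EC. In no cell type was every pair above 0.1, so the numbers were not taken to pair the mice. Because this rule asks every pair to pass, it cannot show that the mice are unpaired. The mice of each pair shared a batch. PC depth limits the genotype comparison, with 3 WT-TgN3 mice.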
